A study of Mus musculus with 6 samples.

Results

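The CC chemokine genes of mouse chromosome 11 were followed in IL-4-treated bone marrow-derived macrophages (BMDMs) with and without ATP citrate lyase (Acly). The members were 10 of the 24445 genes in the deposited count table, chosen by name: Ccl2, Ccl7, Ccl11, Ccl12 and Ccl8 of the MCP (monocyte chemoattractant protein) sub-cluster and Ccl5, Ccl9, Ccl6, Ccl3 and Ccl4 of the MIP (macrophage inflammatory protein) sub-cluster. Ccl1, which lies next to Ccl8, was not a member and is described with the neighbouring genes. Ctrl BMDMs came from Acly fl/fl mice on C57Bl/6J, in which both Acly alleles carry loxP sites flanking exon 9, and the labels call these cells WT although they carry the floxed alleles. AclyM-KO BMDMs came from littermates that carried Lyz2-Cre as well, so that Cre was expressed from the promoter of the myeloid gene Lyz2 and was present while the macrophages formed. Cells of both groups were differentiated for 7 days in L929-conditioned medium and then received IL-4 at 100 U/mL during the last 24 h. There were 3 libraries per group, and the age of the mice is not given in the sources used here. The methods call the replicates biological, whereas a figure legend calls them technical replicates of pooled mice, so the p-values measure the spread between these libraries, which may be technical. Naive BMDMs were not analysed here.

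CC chemokines are small secreted proteins with a pair of adjacent cysteines near the amino terminus, and they guide leukocytes through G protein-coupled receptors. In the mouse, the MCP genes Ccl2, Ccl7 and Ccl12 encode ligands of Ccr2, the receptor by which monocytes leave the bone marrow and enter inflamed tissue. Ccl8 encodes a ligand of Ccr8, which is found on Th2 cells, and Ccl11 encodes eotaxin, a ligand of the eosinophil receptor Ccr3. Of the MIP genes, Ccl3, Ccl5, Ccl6 and Ccl9 encode ligands of Ccr1, which is found on monocytes and macrophages, and Ccl4 encodes macrophage inflammatory protein 1 beta. Macrophages are a major source of these proteins. Ccl6 and Ccl9 are produced constitutively by many myeloid cells, and Ccl3 and Ccl4 are typical early genes of inflammatory activation.

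The libraries held 12151975, 13074469 and 14739689 counts in Ctrl and 14745614, 14787741 and 15587283 counts in AclyM-KO, with 1 transcript row kept per gene. Levels are given as CPM, the counts of a gene scaled to a common library size after TMM (trimmed mean of M values) normalization. A positive log2 fold change means a higher level in AclyM-KO, and genes passed the test when the edgeR quasi-likelihood p-value, adjusted over the 12023 genes that passed the filter on low counts, was under 0.05. Replicates varied beyond sampling of reads: for pairs of libraries within a group, chi-square divided by the number of genes was 2.32 to 7.55, where a value near 1 would reflect sampling alone. Acly, which lies 16.81 Mb from Ccl4 on the same chromosome, checked the labels. Its counts were 4917, 3925 and 4606 in Ctrl and 2140, 2078 and 1978 in AclyM-KO. All AclyM-KO libraries were below all Ctrl libraries, a difference of -1.27 on the log2 scale (edgeR adjusted p = 5.22e-10). All 8 macrophage markers examined were detected in all libraries, and the highest CPM was that of Lyz2 with 6595 ± 515 CPM in Ctrl and 4142 ± 120 CPM in AclyM-KO (SD, n = 3).

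Ccl8 and Ccl12 were the members that rose most in AclyM-KO, by 4.33-fold and 2.34-fold, and they are neighbours at the distal end of the MCP sub-cluster. Ccl9, the member with the most counts, rose 1.40-fold. Ccl4 fell to 77.1% of its Ctrl level. Ccl2, Ccl7, Ccl5, Ccl6 and Ccl3 did not pass the test, and Ccl11 was too low to be tested. Thus 4 of the 9 tested members passed, 3 higher and 1 lower, where 24.9% of all tested genes passed, 12.4% higher and 12.6% lower. Beyond a log2 fold change of 0.58, the limit used by the study, 2 members passed, both higher, against 5.55% of all tested genes (2.98% higher and 2.57% lower). The groups did not overlap for these 4 members, which were 3 higher and 1 lower, as for 40.2% of all tested genes (20.5% higher and 19.8% lower). The median log2 fold change of the tested members was 0.081 and their median absolute log2 fold change was 0.36, against 0.0014 and 0.15 over all tested genes. Since RNA was measured in bulk, more cells that express a gene and more RNA per cell cannot be told apart.

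**Figure D1:**
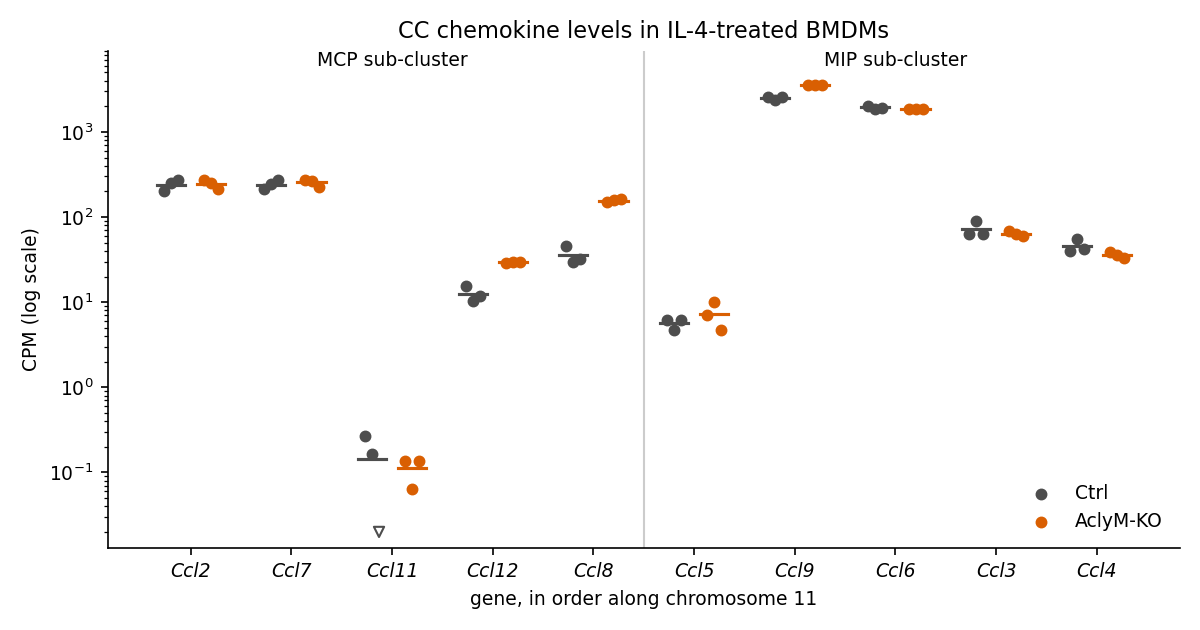
Levels of the 10 CC chemokine genes in IL-4-treated BMDMs, in order along chromosome 11, as CPM on a log scale. Each point is 1 library (3 Ctrl in grey, 3 AclyM-KO in orange), bars are group means and the open triangle marks a library without counts; the groups separate for Ccl12, Ccl8, Ccl9 and Ccl4.

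The members covered a wide range of levels, and transcripts of different length were compared as CPM per kilobase of spliced transcript. In Ctrl, Ccl6 was highest with 1350 CPM per kb and Ccl9 followed with 837 CPM per kb. Ccl7 with 301 ± 36.5 and Ccl2 with 297 ± 46.9 CPM per kb came next and did not differ beyond their spread. Then came Ccl3 with 94.3 ± 20.8, Ccl8 with 70.5 ± 17.7 and Ccl4 with 69.9 ± 12.5 CPM per kb (all SD, n = 3). The ranges of mean ± SD of these genes overlapped. Below them were Ccl12 with 23.4, Ccl5 with 10.7 and Ccl11 with 0.134 CPM per kb. In AclyM-KO, Ccl6 with 1298 and Ccl9 with 1173 CPM per kb remained the most abundant members. Ccl8, at 305 ± 12.6 CPM per kb, then stood between Ccl7 at 319 ± 32.8 and Ccl2 at 303 ± 33.9, and these 3 genes did not differ beyond their spread. Ccl3 had 83.5 CPM per kb, and Ccl12 with 54.9 ± 1.16 and Ccl4 with 53.9 ± 4.60 CPM per kb were also within their spread of each other (SD, n = 3). Ccl5 with 13.7 and Ccl11 with 0.104 CPM per kb were the lowest.

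Together the members took 0.493% to 0.527% of all counts in Ctrl libraries and 0.604% to 0.620% in AclyM-KO libraries, and these ranges did not overlap. Ccl6 and Ccl9 made up 86.1% to 88.8% of the member counts in a library, so the sum mostly follows these 2 genes. The MCP genes summed to 474, 530 and 590 CPM in Ctrl and to 722, 707 and 633 CPM in AclyM-KO. Within this sum, the share of Ccl8 was 9.78%, 5.54% and 5.49% in Ctrl and 20.6%, 22.4% and 25.4% in AclyM-KO.

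Ccl8, which encodes monocyte chemoattractant protein 2, lies on the plus strand of chromosome 11 from 82115185 to 82116799 (GRCm38) and has 3 exons. It had 686, 359 and 427 counts in Ctrl and 2179, 2459 and 2349 counts in AclyM-KO. In CPM this was 46.3, 29.4 and 32.4 in Ctrl and 149, 158 and 161 in AclyM-KO. All AclyM-KO libraries lay far above the highest Ctrl library, which was Ctrl replicate 1. The mean rose from 36.0 ± 9.06 to 156 ± 6.46 CPM (SD, n = 3). Its log2 fold change was 2.10 (standard error 0.109, 95% confidence interval 1.87 to 2.34, edgeR adjusted p = 6.98e-09). By p-value Ccl8 ranked number 6 of the 12023 genes tested. A two-sided exact permutation test over libraries gave p = 0.10, the smallest value that 3 against 3 libraries allow.

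Ccl12, which encodes monocyte chemoattractant protein 5, lies 11.78 kb upstream of Ccl8 on the same strand, from 82101845 to 82103400, and also has 3 exons. Its counts were 230, 126 and 157 in Ctrl and 422, 460 and 438 in AclyM-KO. Scaled to library size these were 15.5, 10.3 and 11.9 CPM in Ctrl and 28.8, 29.6 and 30.01 CPM in AclyM-KO. As for Ccl8, Ctrl replicate 1 was the highest Ctrl library and the AclyM-KO libraries lay close together above it. The mean level went from 12.6 ± 2.68 to 29.5 ± 0.623 CPM (SD, n = 3), which is 1.21 ± 0.114 (standard error) on the log2 scale (95% confidence interval 0.97 to 1.46, edgeR adjusted p = 1.85e-06). The exact permutation test again gave the smallest possible p = 0.10.

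Promoter sequences are shown for the pair that rose most, Ccl12 and Ccl8, and for the pair of most abundant members, Ccl9 and Ccl6, of which 1 rose and 1 did not pass the test. They were taken from RefSeq on GRCm38.p6, cover 250 bases before to 50 bases after the transcription start and are written 5′ to 3′ on the strand of the gene. Of the 10 members, 5 had a promoter in the RefSeq table used here, and the fifth, Ccl3, was searched but is not printed. Capitals mark matches on either strand to the searched letters: TATAAA for the TATA box, GGG and TTTCC with 2 bases between them for NF-kB, GAAA and GAAA with 2 bases between them for the interferon-stimulated response element, TTC and GAA with 4 bases between them for STAT6, TGANTCA for AP-1, GAGGAA for PU.1 and ACGTG for the hypoxia-inducible factor. N stands for any base. The windows lie at chr11:82101595-82101894 (plus strand, Ccl12), chr11:82114935-82115234 (plus strand, Ccl8), chr11:83578587-83578886 (minus strand, Ccl9) and chr11:83593038-83593337 (minus strand, Ccl6).
Ccl12: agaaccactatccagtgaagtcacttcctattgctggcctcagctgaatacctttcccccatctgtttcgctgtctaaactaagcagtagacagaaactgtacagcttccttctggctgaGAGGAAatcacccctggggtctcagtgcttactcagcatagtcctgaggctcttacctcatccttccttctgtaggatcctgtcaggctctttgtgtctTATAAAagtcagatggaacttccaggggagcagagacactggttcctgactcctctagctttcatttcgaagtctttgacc
Ccl8: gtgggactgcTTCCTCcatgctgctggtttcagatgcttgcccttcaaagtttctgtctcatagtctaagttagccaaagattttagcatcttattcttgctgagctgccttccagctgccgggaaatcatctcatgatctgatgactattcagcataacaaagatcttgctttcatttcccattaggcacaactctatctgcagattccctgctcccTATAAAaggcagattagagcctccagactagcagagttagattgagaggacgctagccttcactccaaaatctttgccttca
Ccl9: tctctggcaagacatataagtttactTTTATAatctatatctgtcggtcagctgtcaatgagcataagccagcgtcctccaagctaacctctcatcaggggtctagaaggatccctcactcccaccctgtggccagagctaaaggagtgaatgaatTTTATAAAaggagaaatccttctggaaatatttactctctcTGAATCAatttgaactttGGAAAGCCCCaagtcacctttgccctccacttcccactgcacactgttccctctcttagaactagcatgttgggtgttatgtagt
Ccl6: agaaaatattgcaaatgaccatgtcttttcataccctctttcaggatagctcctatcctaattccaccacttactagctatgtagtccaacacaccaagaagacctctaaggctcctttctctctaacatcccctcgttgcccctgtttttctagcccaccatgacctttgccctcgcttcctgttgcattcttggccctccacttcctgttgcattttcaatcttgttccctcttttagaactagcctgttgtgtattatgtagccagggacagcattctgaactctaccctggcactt

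TATAAA was at almost the same place in the promoters of Ccl12 and Ccl8, beginning at position -31 and position -32 from the start, and 13.6% of the 32851 mouse promoters in the table held these letters. GAGGAA, which 28.3% of promoters held, began at position -130 in Ccl12 and, on the other strand, at position -240 in Ccl8. In Ccl9, TATAAA occurred at positions -224, -94 and -92, of which the last 2 overlap on opposite strands. The Ccl9 window also held the NF-kB letters at position -35 (1.63% of promoters) and the AP-1 letters at position -53 (7.81%). In Ccl3, GAGGAA on the other strand began at position -33. None of the searched letters was found in the Ccl6 window. The interferon-stimulated response element (3.44% of promoters), STAT6 (6.95%) and hypoxia-inducible factor (19.6%) letters were in none of the 5 windows, which says only that these letters are absent from 300 bases. In a global alignment, the promoters of Ccl12 and Ccl8 shared 64.3% of their bases, and the other 9 pairs shared 56.7% to 63.0%, with 60.3% for Ccl9 and Ccl6 and 63.0% for Ccl12 and Ccl6. Promoters of other genes were not aligned, so these values have no background and do not show a shared promoter.

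The proximal MCP genes differed from Ccl12 and Ccl8. Ccl2, which encodes monocyte chemoattractant protein 1, lies from 82035571 to 82037453. Its levels were 200, 248 and 275 CPM in Ctrl and 269, 255 and 216 CPM in AclyM-KO. The groups overlapped fully, with the lowest and the highest library both in Ctrl. Means were 241 ± 38.1 and 247 ± 27.5 CPM (SD, n = 3), and the 95% confidence interval of the log2 fold change, from -0.17 to 0.24, excluded changes of the size seen for Ccl12 and Ccl8 (edgeR adjusted p = 0.836). Ccl7, which encodes monocyte chemoattractant protein 3, lies 8.258 kb from Ccl2, from 82045712 to 82047525. It had 212, 242 and 270 CPM in Ctrl and 276, 264 and 226 CPM in AclyM-KO. Ccl7 followed Ccl2 from library to library: in both genes Ctrl replicate 1 was the lowest Ctrl library and AclyM-KO replicate 3 the lowest AclyM-KO library. The log2 fold change of Ccl7 was 0.081 (95% confidence interval -0.093 to 0.25, edgeR adjusted p = 0.513). Exact permutation tests gave p = 0.80 for Ccl2 and p = 0.60 for Ccl7. Ctrl replicate 1, the lowest Ctrl library for this pair, was the highest for Ccl12 and Ccl8.

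Ccl11, the eotaxin gene, lies between Ccl7 and Ccl12 from 82057823 to 82062955. Only 4, 2 and 0 counts were found in Ctrl and 2, 1 and 2 in AclyM-KO. The gene was therefore at the limit of detection in both groups, and no difference was detectable at this depth.

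In the MIP sub-cluster, Ccl9 rose while its abundant neighbour Ccl6 did not pass the test. Ccl9, which encodes macrophage inflammatory protein 1 gamma, lies on the minus strand from 83572919 to 83578636 and has 4 exons. It had 2598, 2361 and 2594 CPM in Ctrl and 3531, 3521 and 3529 CPM in AclyM-KO. The AclyM-KO libraries were nearly equal and all lay above the Ctrl libraries, of which Ctrl replicate 2 was the lowest. The mean changed from 2517 ± 136 to 3527 ± 5.08 CPM (SD, n = 3), which is 0.49 ± 0.0375 (standard error) on the log2 scale (95% confidence interval 0.41 to 0.57, edgeR adjusted p = 2.91e-07, exact permutation p = 0.10). Ccl9 ranked number 45 of the tested genes by p-value, although its change was inside the fold change limit of 0.58.

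Ccl6, which encodes a chemokine closely related to Ccl9, lies 9.245 kb further, from 83587882 to 83593087, and also has 4 exons. Levels were 2036, 1862 and 1936 CPM in Ctrl and 1879, 1882 and 1848 CPM in AclyM-KO. The AclyM-KO libraries overlapped the lower part of the Ctrl range. The log2 fold change was -0.057 (standard error 0.0377, 95% confidence interval -0.14 to 0.024, edgeR adjusted p = 0.301), and an exact permutation test gave p = 0.30. The row of E230016K23Rik, a gene on the opposite strand within whose span Ccl6 lies without a shared exonic base, held 2.62% to 3.00% more counts than Ccl6 in every library. In the table as a whole, the outer gene had at least as many counts as the inner gene in every library for 25 of 25 such opposite-strand pairs and for 3 of 16 same-strand pairs with an inner gene of at least 3000 counts. The counts of E230016K23Rik can therefore include the reads of Ccl6, and its row is no independent measurement.

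Ccl4, Ccl3 and Ccl5 were the less abundant genes of the MIP sub-cluster. Ccl4, on the plus strand from 83662584 to 83664683, had 40.3, 55.5 and 42.6 CPM in Ctrl and 38.7, 35.5 and 32.6 CPM in AclyM-KO. The highest AclyM-KO library was just below the lowest Ctrl library, and Ctrl replicate 2 stood above the others. Means were 46.1 ± 8.23 and 35.6 ± 3.03 CPM (SD, n = 3), and the log2 fold change was -0.37 (standard error 0.102, 95% confidence interval -0.59 to -0.15, edgeR adjusted p = 0.0155, exact permutation p = 0.10). The edgeR adjusted p was 0.0615 without AclyM-KO replicate 2 (log2 fold change -0.37) and 0.0755 without AclyM-KO replicate 3 (-0.31). Without Ctrl replicate 2, the log2 fold change was -0.22 and passed.

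Ccl3, on the minus strand from 83647844 to 83649355, had 62.4, 90.6 and 63.6 CPM in Ctrl and 68.1, 63.6 and 60.1 CPM in AclyM-KO. Ctrl replicate 2, which was also highest for Ccl4, was the only Ctrl library above all AclyM-KO libraries. Its log2 fold change of -0.17 did not pass the test (95% confidence interval -0.40 to 0.056, edgeR adjusted p = 0.268, exact permutation p = 0.70). Ccl5, from 83525778 to 83530518, was the lowest tested member, with 6.22, 4.74 and 6.15 CPM in Ctrl and 7.16, 10.1 and 4.66 CPM in AclyM-KO. Both the highest and the lowest library belonged to AclyM-KO. A log2 fold change of 0.36 with a wide 95% confidence interval of -0.12 to 0.84 did not pass (edgeR adjusted p = 0.273, exact permutation p = 0.50), so that a rise of the size of that of Ccl9 lay within the interval.

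Along the chromosome, the MCP sub-cluster spans 81.23 kb and the MIP sub-cluster 138.9 kb, with 1.409 Mb between Ccl8 and Ccl5. The MCP genes went from log2 fold changes of 0.033 and 0.081 at Ccl2 and Ccl7 to 1.21 and 2.10 at Ccl12 and Ccl8. In the MIP sub-cluster, the order from Ccl5 to Ccl4 gave 0.36, 0.49, -0.057, -0.17 and -0.37.

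**Figure D2:**
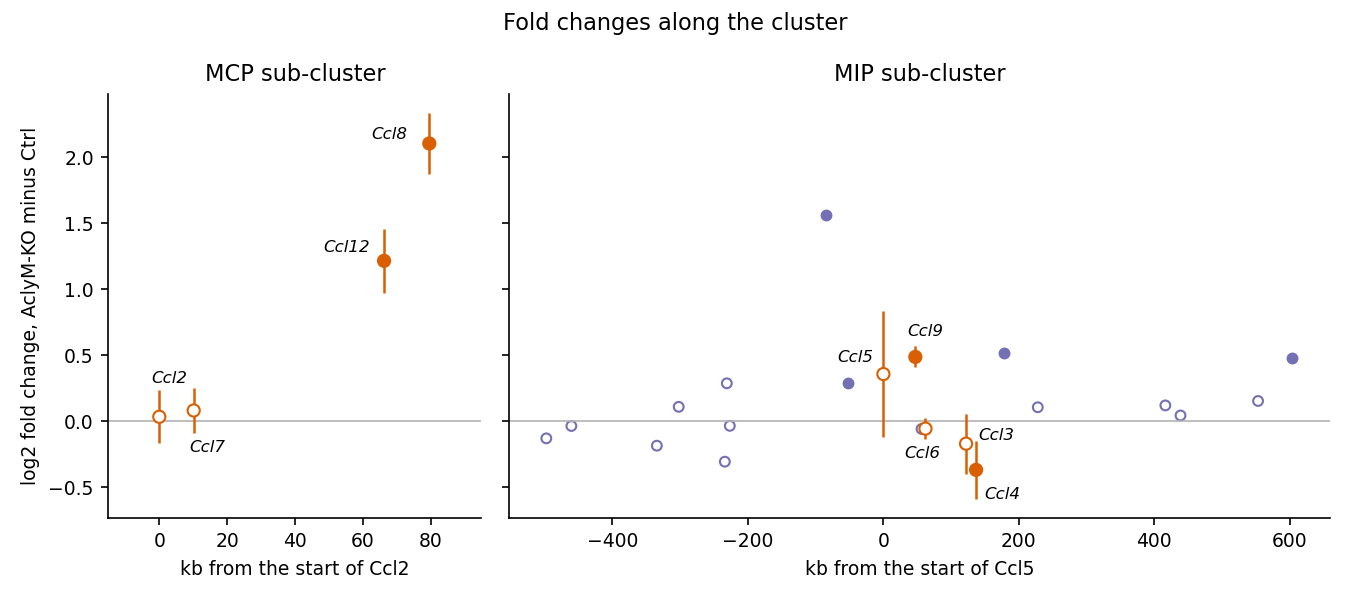
Log2 fold change (AclyM-KO minus Ctrl) of the tested members (orange, with 95% confidence intervals) and of tested genes within 500 kb (purple) against distance along chromosome 11 in kb, counted from the lowest coordinate of Ccl2 or Ccl5, with the MCP sub-cluster on the left and the MIP sub-cluster on the right. Filled points passed the test; Ccl12 and Ccl8 stand at the right end of the MCP sub-cluster, while Ccl9 and Ccl4 lie on opposite sides of 0.

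Other genes between the members or within 500 kb of them were 33, of which 16 were tested, all around the MIP sub-cluster. The 16 genes include E230016K23Rik, whose row is not independent of Ccl6. Of these, 4 rose and 0 fell in edgeR (5 and 0 at an unadjusted p under 0.05, 4 and 0 with both DESeq2 and limma-voom), where 24.9% of all tested genes passed, and their median log2 fold change was 0.11. Wfdc17, which encodes a small secreted protein of macrophages, had 192 ± 19.6 CPM in Ctrl and 275 ± 11.2 CPM in AclyM-KO (SD, n = 3, log2 fold change 0.52, edgeR adjusted p = 3.62e-05). Acaca, which encodes acetyl-CoA carboxylase 1, the enzyme that uses the acetyl-CoA made by Acly for fatty acid synthesis, rose from 46.4 ± 6.91 to 64.4 ± 3.45 CPM (0.48, edgeR adjusted p = 6.25e-04). Taf15, which encodes an RNA-binding protein, rose from 52.4 to 63.8 CPM (0.29, edgeR adjusted p = 0.00821). The fourth call was Mmp28, the gene of the matrix metalloproteinase epilysin, with 6, 12 and 2 counts in Ctrl and 22, 28 and 17 in AclyM-KO. It passed the filter on low counts only through its level in AclyM-KO, so its call is no support for a direction of the neighbours. On the MCP side, none of 4 genes could be tested. Among them was Ccl1, the chemokine gene beyond Ccl8 that encodes another Ccr8 ligand, with 1, 2 and 1 counts in Ctrl and 4, 11 and 10 counts in AclyM-KO. These counts did not overlap but were below the filter on low counts.

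Ratios of neighbouring members within a library do not depend on how libraries are scaled. The ratio of Ccl8 to Ccl12 counts was 2.98, 2.85 and 2.72 in Ctrl and 5.16, 5.35 and 5.36 in AclyM-KO. Both genes rose, but Ccl8 rose more, and the log2 ratio differed by 0.89. In contrast, Ccl7 to Ccl2 gave 1.06, 0.974 and 0.983 in Ctrl and 1.02, 1.04 and 1.05 in AclyM-KO, and these values overlapped. Ccl6 to Ccl9 was 0.784, 0.789 and 0.746 in Ctrl and 0.532, 0.534 and 0.524 in AclyM-KO, a difference in log2 ratio of -0.54. Put as a share, Ccl9 provided 55.9% to 57.3% of the counts of this pair in Ctrl and 65.2% to 65.6% in AclyM-KO. Ccl4 to Ccl3 was 0.645, 0.613 and 0.669 in Ctrl and 0.568, 0.557 and 0.543 in AclyM-KO, without overlap, and the log2 ratio differed by -0.21. Ccl4 was thus lower relative to Ccl3 in all AclyM-KO libraries.

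The ratio of Ccl12 to Ccl7 skips the barely detected Ccl11 and was added after the values were seen. It was 0.0733, 0.0426 and 0.0441 in Ctrl and 0.104, 0.112 and 0.133 in AclyM-KO (log2 difference 1.17), again without overlap. Across the gap between the sub-clusters, the log2 ratio of Ccl5 to Ccl8 differed by -1.84. The ratios of Ccl9 to Ccl5 and of Ccl3 to Ccl6 overlapped between groups (log2 differences of 0.19 and -0.10). Of the 8 ratios, 5 did not overlap and had the smallest possible two-sided exact permutation p = 0.10, which was 0.16 after Benjamini-Hochberg adjustment over the 8 ratios, so this test could not reach 0.05. Adjusted permutation values were 0.533 for Ccl7 to Ccl2 and 0.90 for the other 2. The 5 ratios without overlap include Ccl12 to Ccl7, and those with Ccl8 or Ccl12 share genes, so they are not separate results. For single genes the groups did not overlap in 40.2% of all tested genes, and no such share is given here for ratios. Ratios with Ccl11 were not computed because it had 0 counts in a library.

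**Figure D3:**
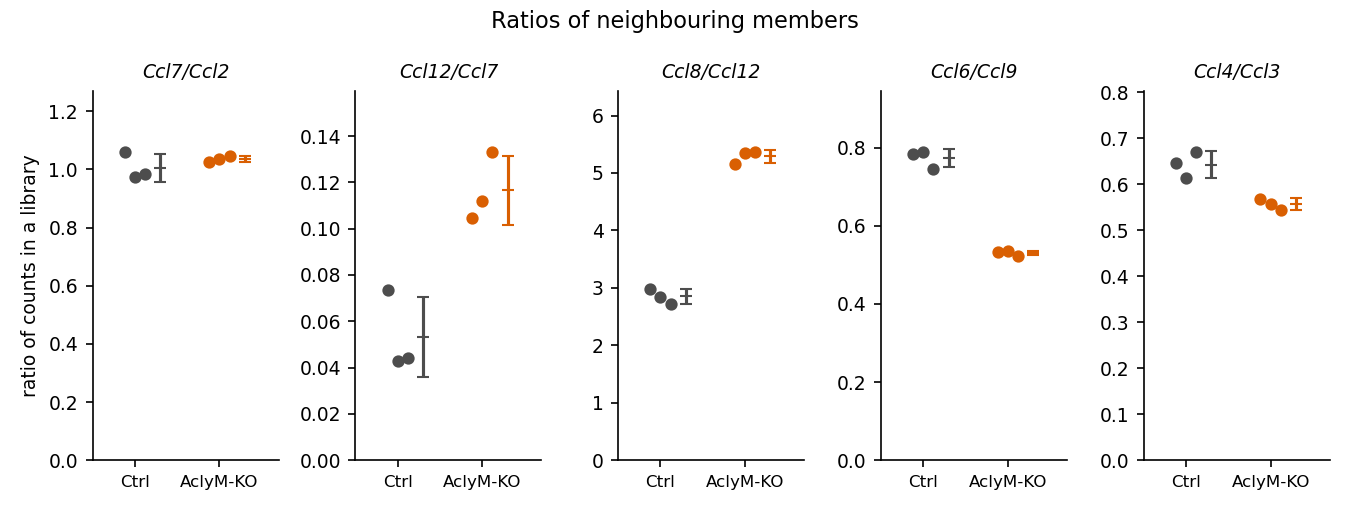
Ratio of the counts of neighbouring members in each library (points; Ctrl grey, AclyM-KO orange) with mean and SD of each group beside them (n = 3). Ccl8/Ccl12 and Ccl12/Ccl7 are higher and Ccl6/Ccl9 and Ccl4/Ccl3 lower in all AclyM-KO libraries, whereas Ccl7/Ccl2 stays near 1 in both groups.

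For the members that passed beyond the fold change limit, the genes with the most similar profile were those with the smallest root mean square difference of centred log2 CPM over the 6 libraries. For Ccl12 these were Tfrc (0.0557), Flrt3 (0.101) and Tyro3 (0.109). Tfrc, the transferrin receptor gene, had 1518 ± 249 CPM in Ctrl and 3517 ± 136 CPM in AclyM-KO (SD, n = 3) and a log2 fold change of 1.21, as did Ccl12. Flrt3 and Tyro3, which encode a membrane adhesion protein and a receptor tyrosine kinase, were below 5 CPM. For Ccl8 the nearest genes were Pard3b (0.229), Mapk11 (0.262) and Zbtb16 (0.289), which encode a polarity protein, the p38 beta kinase and a zinc finger transcription factor and which were all below 5 CPM. Their means were 0.593, 0.546 and 0.271 CPM in Ctrl and 3.11, 3.38 and 1.64 CPM in AclyM-KO. These genes and Flrt3 passed the filter on low counts only through AclyM-KO, so their likeness is no support for a shared profile. The distances for Ccl8 were larger than those for Ccl12, and the libraries share their group and scaling.

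Receptors of the cluster chemokines were examined on the same cells. Ccr1, the receptor of Ccl3, Ccl5, Ccl6 and Ccl9, had 118, 142 and 138 CPM in Ctrl and 108, 100 and 85.0 CPM in AclyM-KO (log2 fold change -0.44, standard error 0.0813, edgeR adjusted p = 0.00106). All AclyM-KO libraries of Ccr1 were below all Ctrl libraries. Ccr2, the receptor of Ccl2, Ccl7 and Ccl12, was low at 4.13 ± 0.841 CPM in Ctrl and 5.19 ± 0.652 CPM in AclyM-KO (SD, n = 3, edgeR adjusted p = 0.241). The eotaxin receptor gene Ccr3, at 21.2 and 21.0 CPM, and Ccrl2, an atypical receptor gene, at 7.33 and 7.29 CPM, did not pass either (edgeR adjusted p = 0.977 and 0.959). Ccr8, the receptor of Ccl8, had 0 counts in all libraries, as did the scavenging receptor gene Ackr1, while Ackr2 and Ccr1l1 were below 1 CPM in each.

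CC chemokine genes other than the members were 11, of which 5 were tested. In this list 0 rose and 1 fell in edgeR, DESeq2 and limma-voom (0 and 2 at an unadjusted edgeR p under 0.05), where 12.4% of all tested genes were higher and 12.6% lower, and the median log2 fold change was -0.0085. The gene that fell was Ccl22, which encodes a ligand of Ccr4, with 69.7, 119 and 76.5 CPM in Ctrl and 47.3, 41.2 and 37.4 CPM in AclyM-KO (log2 fold change -1.07, standard error 0.148, edgeR adjusted p = 8.87e-05). Ctrl replicate 2, the highest library for Ccl3 and Ccl4, was also the highest for Ccl22. Ccl17, which encodes the other Ccr4 ligand, had 1.13 and 0.556 CPM (edgeR adjusted p = 0.121) and Ccl24, an eotaxin-related gene typical of IL-4-treated macrophages, had 38.1 and 39.0 CPM (edgeR adjusted p = 0.786); these genes were singled out after their values were seen. Ccl19, Ccl20 and Ccl21a had 0 counts in all libraries.

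Genes known to act on chemokine transcription were described list by list, beside the 12.4% of all tested genes that were higher and the 12.6% that were lower. Of 10 NF-kB subunits and feedback genes, 1 rose and 2 fell in edgeR and limma-voom (0 and 2 with DESeq2), with a median log2 fold change of 0.060. Nfkb2 rose in edgeR (0.19, edgeR adjusted p = 0.0418) but passed neither with DESeq2 nor with library totals alone, whereas Nfkb1 (-0.19, 0.00792) and the feedback inhibitor gene Tnfaip3 (-0.31, 0.00499) fell, with edgeR adjusted p-values given second. Of 9 tested AP-1 and C/EBP factors, 0 rose and 4 fell in edgeR, DESeq2 and limma-voom (1 and 4 at an unadjusted edgeR p under 0.05), with a median of -0.16. They were Cebpd (-0.42, edgeR adjusted p = 4.27e-04), Junb (-0.35, 2.79e-04), Jund (-0.22, 0.00794) and Fosl2 (-0.24, 0.0183). None of these changes was beyond the fold change limit.

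The 14 tested genes of interferon receptors, STATs and IRFs included 0 that rose and 3 that fell in edgeR, DESeq2 and limma-voom (0 and 4 at an unadjusted edgeR p under 0.05), with a median log2 fold change of -0.031. Ifngr1, a chain of the interferon gamma receptor, fell from 189 ± 13.1 to 132 ± 0.838 CPM (-0.52, edgeR adjusted p = 5.68e-06). Irf8, a transcription factor gene of the monocyte lineage, fell from 181 ± 8.57 to 134 ± 4.11 CPM (-0.43, edgeR adjusted p = 2.36e-05) and the type I receptor chain gene Ifnar2 from 133 ± 3.96 to 110 ± 3.03 CPM (-0.27, edgeR adjusted p = 9.28e-04; all SD, n = 3). Of 14 tested interferon-stimulated genes, 3 rose and 0 fell in edgeR, DESeq2 and limma-voom (7 and 0 at an unadjusted edgeR p under 0.05), beside 12.4% and 12.6% of all tested genes at the adjusted threshold. No share over all tested genes is given here for the unadjusted p. In this list 12 genes had a log2 fold change above 0, and the median was 0.29, against 0.0014 over all tested genes. Gbp2, the gene of a guanylate-binding protein, rose by 0.38 on the log2 scale (edgeR adjusted p = 0.00149). The oligoadenylate synthetase genes Oas2 (0.60, edgeR adjusted p = 0.00928) and Oas1a (0.29, edgeR adjusted p = 0.0133) rose as well. Ifnb1, the interferon beta gene, had 0 counts in all libraries.

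**Figure D4:**
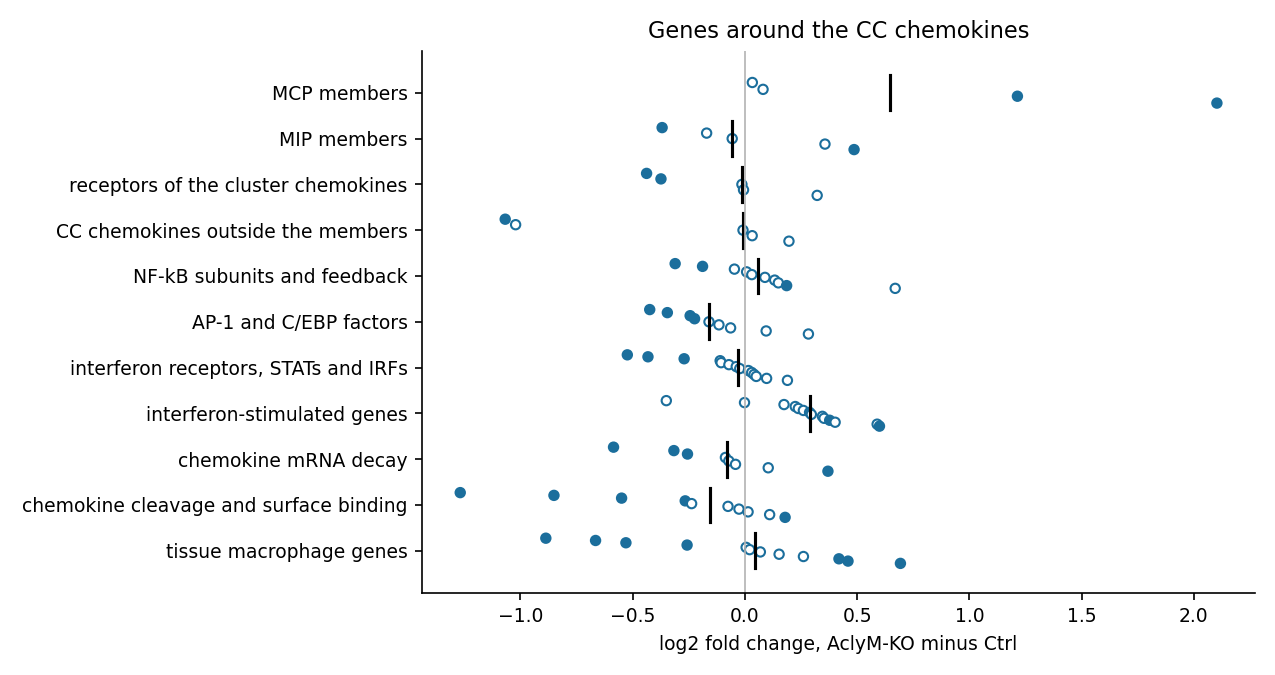
Log2 fold changes (AclyM-KO minus Ctrl) of the tested genes in each pathway list, marker genes of cell types not included, with filled points for genes that passed the test, open points for the others and black bars for list medians. Ccl12 and Ccl8 of the MCP members lie above the values of all other genes shown, and the interferon-stimulated genes have a median of 0.29.

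Chemokine transcripts are short-lived, and 8 genes known to bind or degrade such mRNA were all tested. Of these 1 rose and 3 fell, where 12.4% of all tested genes were higher and 12.6% lower, with a median log2 fold change of -0.079. Zfp36, which encodes the decay factor tristetraprolin, rose from 168 ± 5.79 to 217 ± 7.40 CPM (0.37, edgeR adjusted p = 6.97e-05). Its relative Zfp36l1 fell from 185 ± 7.60 to 123 ± 5.80 CPM (SD, n = 3; -0.59, edgeR adjusted p = 1.43e-06). The endonuclease gene Zc3h12a (-0.32, edgeR adjusted p = 0.00554) and Hnrnpd, which encodes the AU-rich element binding protein AUF1 (-0.26, edgeR adjusted p = 0.00330), fell too. Members of this list thus moved in both directions.

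Proteases and surface proteoglycans that cut or hold chemokines outside the cell were 12 genes, of which 10 were tested. In this list 1 rose and 4 fell, beside 12.4% and 12.6% of all tested genes, and the median log2 fold change was -0.16. The matrix metalloproteinase genes Mmp14 (from 16.8 ± 2.66 to 6.93 ± 1.38 CPM, -1.27, edgeR adjusted p = 2.20e-05) and Mmp9 (from 61.8 ± 21.3 to 34.1 ± 4.51 CPM, -0.85, edgeR adjusted p = 0.00172) fell most (SD, n = 3). Sdc3, a syndecan gene, fell from 857 ± 37.2 to 585 ± 8.32 CPM (-0.55, edgeR adjusted p = 3.16e-07), while Sdc4 rose from 485 ± 19.1 to 550 ± 4.45 CPM (0.18, edgeR adjusted p = 0.00783). Ndst1, a gene of heparan sulfate synthesis, fell by 0.27 on the log2 scale (edgeR adjusted p = 6.85e-04). Mmp12, the gene of the list with the highest CPM, did not pass the test.

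Genes typical of resident tissue macrophages moved in both directions. Of 12 tested, 3 rose and 4 fell in edgeR (3 and 2 with DESeq2, 4 and 4 with limma-voom), beside 12.4% and 12.6% of all tested genes, with a median log2 fold change of 0.045. Cbr2 (0.69, edgeR adjusted p = 4.81e-07), the scavenger receptor gene Cd163 (0.46, 1.19e-05) and the platelet factor gene Pf4 (0.42, 5.94e-05) rose. The complement gene C1qa (-0.67, edgeR adjusted p = 6.99e-07), F13a1 (-0.89, 0.00517), the folate receptor gene Folr2 (-0.26, 0.0183) and the ficolin gene Fcna (-0.53, 0.0360) fell. Lyve1 and Timd4, which were singled out after their values were seen, were below 1 CPM in each library.

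Markers of other cells were examined in the same way, and some moved with genotype. The 8 neutrophil markers summed to 16.96, 18.8 and 16.5 CPM in Ctrl and to 25.9, 25.03 and 24.2 CPM in AclyM-KO. Of 4 tested, 2 rose and 0 fell in edgeR, beside 12.4% and 12.6% of all tested genes. S100a8 (2.95 ± 0.245 to 5.33 ± 0.236 CPM, edgeR adjusted p = 0.00257) and S100a9, which had the highest CPM (5.61 ± 1.30 to 8.44 ± 0.0687 CPM, edgeR adjusted p = 0.0152), rose, and the defining markers Ly6g, Mpo, Elane and Camp were below 1 CPM (SD, n = 3). Of the monocyte markers, Ly6c2 and Plac8 were below 1 CPM and the summed level, mostly Chil3 (415 ± 63.7 CPM in Ctrl and 405 ± 6.59 CPM in AclyM-KO, SD, n = 3), overlapped between groups. Of 7 dendritic cell markers, Cd209a (counts of 3, 3 and 6 in Ctrl, then 12, 16 and 15 in AclyM-KO) passed the filter on low counts only through AclyM-KO, with no call in DESeq2, and Flt3, Xcr1 and Clec9a were below 1 CPM. Their part in the changes of Ccl8, Ccl12 and Ccl9 was not tested.

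Lymphocyte, mast cell and fibroblast markers were close to absent. T cell markers summed to less than 1 CPM in each library and NK cell markers likewise, with Ncr1 at 0. Of 5 B cell markers, only Cd79b was tested, and it fell from 2.56 to 1.34 CPM (edgeR adjusted p = 0.0138). Among eosinophil, basophil and mast cell markers Mcpt8, Fcer1a and Ms4a2 were at 0 and the gene with the highest CPM, Siglecf, had 1.81 and 1.99 CPM. Fibroblast markers summed to 0.608, 1.15 and 0.607 CPM in Ctrl and to 1.16, 1.54 and 1.78 CPM in AclyM-KO, with Lum at 0. The endothelial list was led by Vwf, which rose from 910 ± 54.9 to 1380 ± 22.8 CPM (SD, n = 3, edgeR adjusted p = 1.96e-07), whereas Emcn was at 0 and Cdh5 and Tek were below 1 CPM. Of 8 tested macrophage markers, 1 rose and 4 fell in edgeR, beside 12.4% and 12.6% of all tested genes. Adgre1 rose (0.33, edgeR adjusted p = 2.27e-05), and Lyz2 (-0.67, 5.79e-08), Mertk (-0.73, 2.56e-07), Itgam (-0.28, 0.00113) and Csf1r (-0.20, 0.00366) fell. Only AclyM-KO cells carried Lyz2-Cre, so effects of Lyz2-Cre, on Lyz2 or other genes, and of Acly loss cannot be told apart.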

How the data were processed

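RNA of 6 libraries was analysed, 3 AclyM-KO and 3 Ctrl, grouped by the labels. Per the labels and the methods, strand-specific mRNA libraries were sequenced, CASAVA 1.8.2 and STAR 2.5.2b were named as tools, and reads were aligned to mm10. The authors deposited unnormalized read counts per RefSeq transcript, whose counting program is not given in the sources used here. Of 35745 rows, 35440 were paired with genes through RefSeq (GRCm38.p6) and 188 through GENCODE M21, and 117 rows without a gene (0.370% to 1.38% of counts) were left out. The row with the highest total was kept for each of 24445 genes. Each member had a single row, and 0 members had counts identical to those of another gene. How reads that fit several related genes were assigned is not given in the sources used here. Counts of a gene can include reads of opposite-strand genes within its span.

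The quasi-likelihood test of edgeR 4.0.16 (R 4.3.3) compared the groups, with genotype alone in the design, TMM factors, its filterByExpr filter on low counts and Benjamini-Hochberg adjustment over 12023 genes. The common biological coefficient of variation was 0.0588. Standard errors were derived from the fold change and its F statistic, and 95% confidence intervals from the t distribution. Exact permutation tests used log2 CPM (prior count 2) and were two-sided. The members, the lists and the tests were chosen with earlier results of these data known. Named were all members, their receptors except as stated at the end, up to 4 genes per list and direction that passed, and the 3 most similar genes of each member beyond the limit. Alternatives were DESeq2 1.42.0, which the study used, limma-voom (limma 3.58.1), other scalings, filters and row choices, a replicate term, a fold change limit, a narrower neighbour window, added counts in ratios and removal of each library. On simulated counts for the same libraries (11930 genes), 82 of 87 genes changed by 1 on the log2 scale and 112 of 112 changed by 2 were recovered, with 4 false calls. The simulation took the spread from its trend over genes, not gene by gene, and changed far fewer genes than passed in the data. Changes smaller than 1 were not simulated, so it says nothing about changes of the size of those of Ccl9 or Ccl4. With 3 libraries per group the precision of the tested members is limited by the spread between libraries, and that of Ccl11 by its few counts. Coordinates are those of GENCODE M21 on GRCm38, counted from 1. Results for some single genes and motifs are not reported here.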

Additional observations from a re-analysis of the deposited data

How the results depend on the processing

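Ccl8, Ccl12 and Ccl9 kept their direction and an adjusted p under 0.05 in the 16 alternatives that refitted the members, although Ccl9 was inside the log2 fold change limit of 0.58, with log2 fold changes of 1.97 to 2.33, 1.09 to 1.40 and 0.44 to 0.51. With DESeq2, limma-voom, the other scalings, the sum of all rows of a gene or every row tested, Ccl4 was the fourth member that passed. Without a filter on low counts, 5 members passed, with Ccl3 added. With the log2 fold change limit of 0.58, 2 members, 667 genes of all tested and 8 genes of the pathway lists passed, in place of 4, 2996 and 32. Leaving out single libraries gave 3 to 5 members and 1974 to 3060 genes, the fewest without AclyM-KO replicate 2. Testing every row gave 5059 rows that passed, of 19784, since more features were tested. DESeq2 called 2265 genes. Of the 51 genes that passed among lists and neighbours, 0 changed sign with other scalings, DESeq2 or limma-voom, 1 (Nfkb2) did not pass with library totals alone and 5 (Nfkb2, Folr2, Fcna, Cd209a and Cd79b) did not with DESeq2. The pathway lists had 29 with DESeq2, and of the neighbours 3 of 5 tested within 200 kb passed (60.0%, median log2 fold change 0.29), in place of 4 of 16 within 500 kb (median 0.11), both with Mmp28.

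Members that did not pass turned direction without single libraries: Ccl2 was at -0.034 without AclyM-KO replicate 1 and -0.088 without Ctrl replicate 1, Ccl7 at -0.0078 without Ctrl replicate 1 and Ccl3 at 0.017 without Ctrl replicate 2. Ccl5 passed without AclyM-KO replicate 3 (0.59) and Ccl6 without Ctrl replicate 2 (-0.092), while Ccl5 was at 0.046 without AclyM-KO replicate 2 and Ccl6 at -0.025 without Ctrl replicate 1. Ccl4 did not pass without AclyM-KO replicate 2 or 3, and it ranged from -0.46 to -0.22, the smallest change without Ctrl replicate 2. Over all libraries left out in turn, Ccl2 ranged from -0.088 to 0.13, Ccl7 from -0.0078 to 0.17 and Ccl3 from -0.27 to 0.017. The cause was not tested. With 1 library left out, the log2 ratio of Ccl8 to Ccl12 differed by 0.86 to 0.93, Ccl6 to Ccl9 by -0.57 to -0.53, Ccl4 to Ccl3 by -0.24 to -0.18, Ccl12 to Ccl7 by 1.03 to 1.42, Ccl5 to Ccl8 by -2.10 to -1.53, Ccl7 to Ccl2 by 0.021 to 0.082, Ccl9 to Ccl5 by -0.10 to 0.46 and Ccl3 to Ccl6 by -0.23 to 0.11.

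Replicate numbers are not said to pair libraries, and deviations of same-numbered libraries correlated at -0.065, 0.050 and -0.031. With the replicate number as a block, 4 members and 2644 genes passed, and not every library correlated best with its own number. The few counts of Ccl11 and Ccl1 limit what can be said of them, and whether the tests cover the spread between mice is not settled by the sources used here.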
